A study of Mus musculus with 6 samples.

Results

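The first complement component, C1, and its inhibitor were followed here through 7 mouse genes: C1qa, C1qb and C1qc for the recognition chains, C1ra, C1s1 and C1s2 for the proteases, and Serping1 for the C1 inhibitor, which is no subunit of C1. They were chosen by name, with their values in these libraries known, from a table of 34745 genes, in which 8 rows carry a member's name because C1s2 is listed under 2 identifiers. The cells were lung mesenchymal stromal cells (LMSCs) cultured to passage 3 from mice that carry the MMTV-PyMT transgene, in which a mammary tumor virus promoter drives the polyoma middle T antigen in mammary epithelium and mammary tumors spread to the lung. A-LMSCs came from the adenoma stage (mice aged 6 to 7 weeks per the labels), PM-LMSCs from the pre-metastatic stage (9 to 10 weeks) and M-LMSCs from the metastatic stage (13 to 14 weeks), with 2 RNA-seq libraries at each stage. The study's methods give slightly older mice for the adenoma and pre-metastatic stages. All 6 libraries came from tumor-bearing mice, so stage and age cannot be told apart, and no library of a mouse without the transgene was analysed here. The cultures were adherent lung cells depleted of CD45+ leukocytes, and the study's methods describe them as CD11b-, CD31-, CD34- and CD45-.

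C1q is a bundle of 3 kinds of chain that recognises antibody on a surface, as well as dying cells. Bound C1q activates the serine protease C1r, C1r cleaves C1s, and C1s then cleaves C4 and C2, which leads to the enzyme that cleaves C3. The C1 inhibitor, a serpin secreted in quantity by fibroblasts and hepatocytes, blocks C1r and C1s. In tissues the C1q chains are made mainly by macrophages, whereas C1r, C1s and the inhibitor are made by stromal and liver cells, and the mouse carries duplicated copies of the C1r gene (C1ra and C1rb) and of the C1s gene (C1s1 and C1s2).

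The level of a gene is given as FPKM, its sequenced fragments scaled to gene length and to library size, as deposited by the authors. The spacing of low values placed the depth between about 14800000 and 20800000 fragments a library, and at those depths 94.3% to 94.9% of the low values of genes with 1 transcript were within 0.05 of a whole fragment. A fragment in a gene of 1 kb was therefore worth 0.0480 to 0.0677 FPKM. The identity of the cells was checked against lists of marker genes, written with earlier results of these data known. The 18 stromal markers summed to between 3365 and 4764 FPKM, with Col1a1 between 761 and 1472 FPKM. Lymphocyte, mast cell and neutrophil markers summed to at most 1.99 FPKM over 15 genes, with Ly6g and S100a9 listed at 0 throughout, and the 9 endothelial markers summed to at most 3.32 FPKM. The 14 epithelial markers summed to 0.413 to 1.62 FPKM at the A and PM stages and to 2.83 and 5.12 FPKM in the M-LMSC libraries. The 14 mesothelial markers were more abundant, from 238 FPKM in A-LMSC replicate 1 to 669 FPKM in M-LMSC replicate 2.

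The protease genes have near copies of themselves, and the sequences show how far a short fragment can separate them. The coding sequences of C1s1 and C1s2, 2082 bases each, differed at 90 bases (95.7% identity), and 24.6% of the 50-base words of the C1s1 transcript occurred in the C1s2 transcript. C1ra and C1rb were closer still, with 98.0% identity over 2118 aligned coding bases and 48.0% of the C1ra words shared. Below are the stretches of 90 coding bases within 1 exon that had the fewest and the most differences between C1s1 and C1s2. They are from the GENCODE M21 transcripts (GRCm38, minus strand) and run 5′ to 3′, with capitals at bases that differ. The stretch with the fewest lies in exon 3 of C1s1 (chr6:124540831-124540920) and exon 2 of C1s2 (chr6:124635524-124635613) and has 0 differences, so that no fragment inside it can be assigned to either gene.
C1s1: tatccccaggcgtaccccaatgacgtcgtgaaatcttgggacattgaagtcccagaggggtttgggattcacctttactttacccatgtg
C1s2: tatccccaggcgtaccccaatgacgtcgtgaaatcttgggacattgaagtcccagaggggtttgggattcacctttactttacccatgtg
The stretch with the most lies in exon 12 of the same C1s1 transcript (chr6:124531486-124531575) and exon 11 of that of C1s2 (chr6:124625708-124625797) and has 20 differences.
C1s1: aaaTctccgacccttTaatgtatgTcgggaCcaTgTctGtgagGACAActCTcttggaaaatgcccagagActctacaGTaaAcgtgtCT
C1s2: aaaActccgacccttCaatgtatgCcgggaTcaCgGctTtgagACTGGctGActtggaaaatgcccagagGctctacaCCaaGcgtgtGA

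The promoters of C1qb and C1qc are shown because the genes of the C1q chains lie side by side and their levels correlated. On GRCm38 C1qb (chr4:136880129-136886187), C1qc (chr4:136889804-136893065) and C1qa (chr4:136895917-136898803) are all on the minus strand. In the 250 bases before the RefSeq start, capitals mark GAGGAA or its complement TTCCTC, a word found in many of the sites bound by PU.1, a transcription factor of the macrophage lineage. It was found once before C1qb, 30 to 25 bases upstream, and once before C1qc, on the other strand, 193 to 188 bases upstream. The promoter sequences used had no entry for C1qa or Serping1, so neither was searched. The same word was present in 23.3% of all 32851 windows of this length and in none of those of C1ra, C1s1, C1s2, C1rb and C1rl. A match does not show binding, and binding of PU.1 was not tested. For C1qc only the 99 bases that lie before the GENCODE gene are printed. The sequences are RefSeq's (GRCm38.p6), in the direction of transcription, from chr4:136886201-136886450 for C1qb and chr4:136893066-136893164 for C1qc.
C1qb: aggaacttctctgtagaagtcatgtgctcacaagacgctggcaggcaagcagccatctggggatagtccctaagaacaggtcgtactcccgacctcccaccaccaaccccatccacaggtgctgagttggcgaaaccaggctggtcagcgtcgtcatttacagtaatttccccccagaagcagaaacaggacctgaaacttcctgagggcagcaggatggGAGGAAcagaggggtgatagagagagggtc
C1qc: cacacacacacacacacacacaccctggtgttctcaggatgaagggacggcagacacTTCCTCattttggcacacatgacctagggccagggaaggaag

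**Figure D1:**
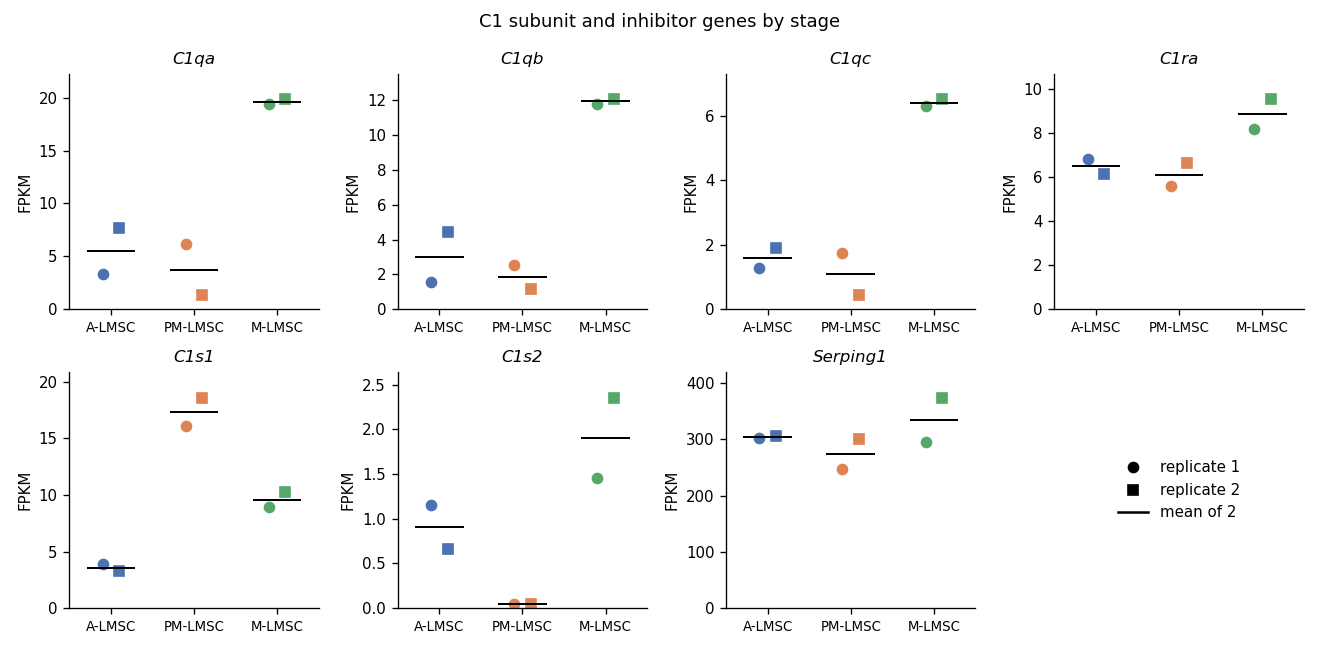
FPKM of the 7 genes in each library, with 1 panel per gene, stages on the horizontal axis, circles for replicate 1, squares for replicate 2 and a line at the mean of both. The C1q chains stood highest in the M-LMSC libraries, C1s1 in the PM-LMSC libraries and C1s2 lowest there, and Serping1 lay between 248 and 374 FPKM throughout.

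The C1q chains were low at the 2 earlier stages and several times higher in both M-LMSC libraries. C1qa, the A chain, was at 3.37 and 7.69 FPKM at the A stage, 6.18 and 1.33 at the PM stage and 19.4 and 19.9 at the M stage. C1qb was at 1.54 and 4.41 FPKM at the A stage, 2.55 and 1.16 at the PM stage and 11.8 and 12.1 at the M stage. C1qc was at 1.27 and 1.91 FPKM at the A stage, 1.76 and 0.439 at the PM stage and 6.30 and 6.53 at the M stage. For each chain, both M-LMSC libraries lay above the other 4, while A-LMSC and PM-LMSC libraries overlapped and differed widely within their own stage. Summed over the 3 chains, the level was 10.1 ± 5.54 FPKM at the A stage, 6.71 ± 5.35 FPKM at the PM stage and 38.0 ± 0.746 FPKM in M-LMSCs (mean ± SD, n = 2 each). The mean of the sum was thus 3.76 times higher in M-LMSCs than at the A stage and 5.66 times higher than in PM-LMSCs.

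These levels rest on few fragments at the earlier stages. C1qa held 73 and 140 fragments in the A-LMSC libraries, 95 and 22 in the PM-LMSC libraries and 333 and 343 in the M-LMSC libraries. C1qb held 35 and 84, then 41 and 20, then 212 and 218. The differences of the stage means on the log2(FPKM + 1) scale, M-LMSC minus A-LMSC, were 1.74 ± 0.535 for C1qa, 1.80 ± 0.376 for C1qb and 1.53 ± 0.298 for C1qc (± SE of the limma fit). Against PM-LMSCs they were 2.33, 2.22 and 1.89, with the same standard errors, and between PM-LMSCs and A-LMSCs they were -0.59, -0.42 and -0.37. The last 3 changed sign when a library was left out: without PM-LMSC replicate 2 the difference was 0.22 for C1qa and 0.10 for C1qc, and without A-LMSC replicate 2 it was 0.12 for C1qb.

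The chains kept a similar proportion to each other where they were high. The ratio of C1qa to C1qc was 3.07 and 3.04 in the M-LMSC libraries, and that of C1qa to C1qb was 1.64 and 1.65. In the other 4 libraries the ratio of C1qa to C1qc ran from 2.65 to 4.02 and that of C1qa to C1qb from 1.15 to 2.42. Over the 6 libraries, the log2 levels of the 3 chains correlated with Pearson's r between 0.97 and 0.98, a description of points that share their libraries and depth.

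Genes of macrophages were highest in the same libraries as the C1q chains. Of 25 macrophage markers, 17 were higher in both M-LMSC libraries than in the other 4. This held for all 11 that passed the filter of a mean of at least 1 FPKM, beside 11.8% of the 10279 genes that passed it. As that mean includes the M-LMSC libraries, a marker could pass through its high values there, so the count of 11 describes the markers and tests nothing. Over the whole list the summed level was 149 and 140 FPKM at the A stage, 190 and 86.5 at the PM stage and 452 and 326 at the M stage, most of it from Lyz2, the gene for lysozyme of myeloid cells. The 8 markers taken as defining summed to 15.5 and 14.7 FPKM at the A stage, 19.4 and 10.4 at the PM stage and 44.9 and 37.5 at the M stage. Tyrobp, an adaptor of myeloid receptors, stood at 4.59 and 4.25, then 4.92 and 3.13, then 13.1 and 12.1 FPKM. Fcer1g, the shared chain of Fc receptors, stood at 1.02 and 0.676, then 1.81 and 0.706, then 4.29 and 4.09 FPKM. Ptprc, which encodes CD45, the antigen used to deplete leukocytes, was near 0 at 0.0253 to 0.0986 FPKM. Itgam, the gene for CD11b, is not among these markers and had a mean under 1 FPKM, so it was not tested. It was at 0.0799 and 0.468 FPKM at the A stage, 0.488 and 0.0349 at the PM stage and 2.45 and 1.46 at the M stage. None of the defining markers was at 0 in every library. PM-LMSC replicate 2 was the lowest library both for the summed C1q chains and for the summed defining markers, whereas A-LMSC replicate 2 had 2.27 times the summed C1q level of A-LMSC replicate 1 with no more of the defining markers.

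With limma, 0 of the 11 macrophage markers tested passed an adjusted p of 0.05 in M-LMSCs against A-LMSCs, beside 0.0681% of all genes tested. All 11 had an unadjusted p under 0.05, as did 1504 of all 10279 genes. When the replicate number was kept as a block, 9 of the 11 passed, beside 3.92% of all genes. Among the 9 were Fcer1g and Tyrobp (limma adjusted p = 0.016 for both) and Lyz2 (0.029). As the 11 passed the filter with their M-LMSC values included, these counts too describe them and test nothing. In bulk RNA a larger number of macrophages and more C1q RNA in each cell cannot be told apart, and the part of macrophage RNA in the C1q values was not tested.

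**Figure D2:**
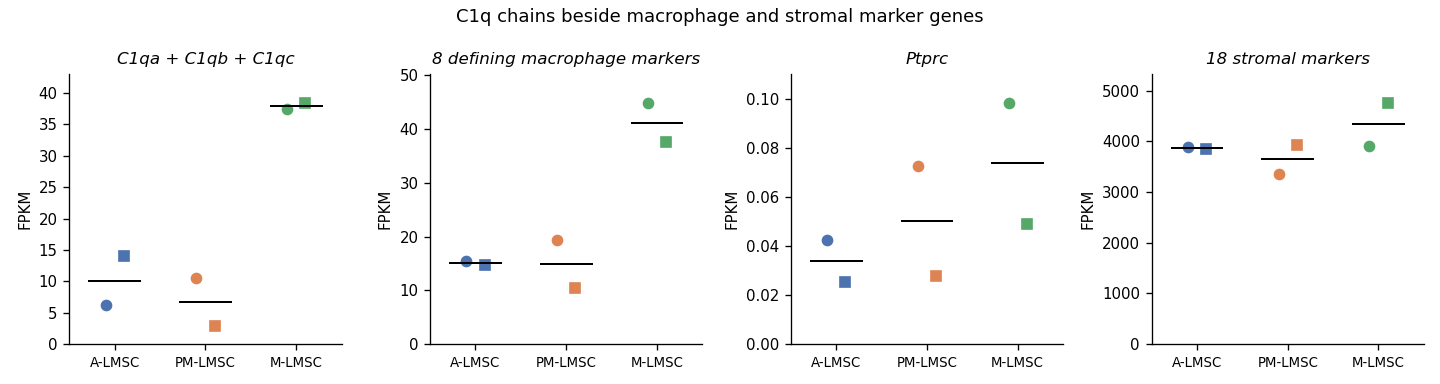
Summed FPKM of the C1q chains, of the 8 defining macrophage markers, of Ptprc and of the 18 stromal markers in each library, with circles for replicate 1, squares for replicate 2 and lines at stage means. The C1q sum and the defining markers were highest in both M-LMSC libraries, while Ptprc stayed under 0.1 FPKM and the stromal sum between 3365 and 4764 FPKM.

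The genes whose pattern over the 6 libraries was most like the summed C1q chains were Cyth4 (Pearson's r = 0.98), Cfp (0.98), Npy (0.96), Nckap1l (0.95) and Arg1 (0.95), out of 601 tested genes whose log2 level ranged over at least 1. Cfp encodes properdin, the stabiliser of the alternative pathway convertase, and Nckap1l and Cyth4 are expressed in blood cells. Arg1, arginase 1, was at 0.81 and 2.25 FPKM at the A stage, 2.61 and 0.896 at the PM stage and 9.26 and 13.9 at the M stage. The summed C1q level also correlated with the summed defining macrophage markers (r = 0.94), again over 6 libraries that share their depth.

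Of the protease genes, C1s1 did not follow the C1q chains (r between -0.15 and -0.09 on the log2 scale over the 6 libraries), whereas C1ra (r between 0.64 and 0.76) and C1s2 (0.74 to 0.80) were, like them, highest in both M-LMSC libraries. C1s1 was lowest in A-LMSCs, highest in PM-LMSCs and intermediate in M-LMSCs, with no overlap between any of the stages. It was at 3.87 and 3.25 FPKM at the A stage, 16.1 and 18.6 at the PM stage and 8.94 and 10.2 at the M stage. The stage means were 3.56 ± 0.440, 17.3 ± 1.80 and 9.59 ± 0.923 FPKM (mean ± SD, n = 2 each), so that the mean was 4.87 times higher in PM-LMSCs and 2.69 times higher in M-LMSCs than at the A stage. On the log2(FPKM + 1) scale the differences from A-LMSCs were 2.01 ± 0.139 and 1.22 ± 0.139 (± SE), and M-LMSCs lay below PM-LMSCs by a log2 difference of -0.79.

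C1ra, the upstream protease, was nearly level. It was at 6.82 and 6.15 FPKM at the A stage, 5.58 and 6.63 at the PM stage and 8.17 and 9.54 at the M stage. The M-LMSC libraries were both above the others, with a mean 1.37 times that of A-LMSCs, and the A-LMSC and PM-LMSC libraries overlapped. The ratio of C1s1 to C1ra, on the per-length FPKM scale, was 0.568 and 0.528 in A-LMSCs, 2.88 and 2.81 in PM-LMSCs, and 1.09 and 1.07 in M-LMSCs. The ratio thus varied little within a stage and separated the stages, although it carries the difference in C1s1 on which the genes were chosen.

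C1s2, the second C1s gene, went the other way in PM-LMSCs. It was at 1.15 and 0.665 FPKM at the A stage, 0.0508 and 0.0473 at the PM stage and 1.45 and 2.35 at the M stage, and its second identifier was at 0 in every library. In fragments these values were 64 and 31, then 2 and 2, then 64 and 104. Both PM-LMSC libraries lay under the other 4. The mean of C1s2 was under 1 FPKM, so it was not tested. With its fragments summed by stage, the rate in PM-LMSCs was 0.0526 of that in A-LMSCs, with a 95% interval of 0.0141 to 0.139 from the exact binomial, which covers counting error only. C1rb, the copy of C1ra that lies between C1s1 and C1s2, had the same order of stages, with 16 and 10 fragments in A-LMSCs, 1 and 2 in PM-LMSCs, and 14 and 25 in M-LMSCs (0.144 of the A-LMSC rate in PM-LMSCs, interval 0.0279 to 0.471).

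Fragments that fit both copies could have been moved between them, so the 2 C1s genes were also added. As FPKM times the GENCODE exon length in kb, which is proportional to the share of a library's fragments if that length was the one used, C1s1 and C1s2 together gave 15.2 and 11.9 in A-LMSCs, 50.4 and 58.4 in PM-LMSCs, and 31.8 and 38.3 in M-LMSCs. The mean of the sum was 4.01 times higher in PM-LMSCs and 2.58 times higher in M-LMSCs than at the A stage, against 4.87 and 2.69 for C1s1 alone. C1s2 made up 20.2% and 14.8% of the sum in A-LMSCs, 0.269% and 0.216% in PM-LMSCs, and 12.2% and 16.4% in M-LMSCs. For C1s1 the FPKM values did not give whole fragments at this exon length (3129 bases), so the sums and shares hold only as far as that length does. The order of the stages in total C1s was that of C1s1. C1rb made up 3.64% and 3.02% of the C1ra and C1rb fragments in A-LMSCs, 0.405% and 0.633% in PM-LMSCs, and 3.36% and 5.03% in M-LMSCs.

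**Figure D3:**
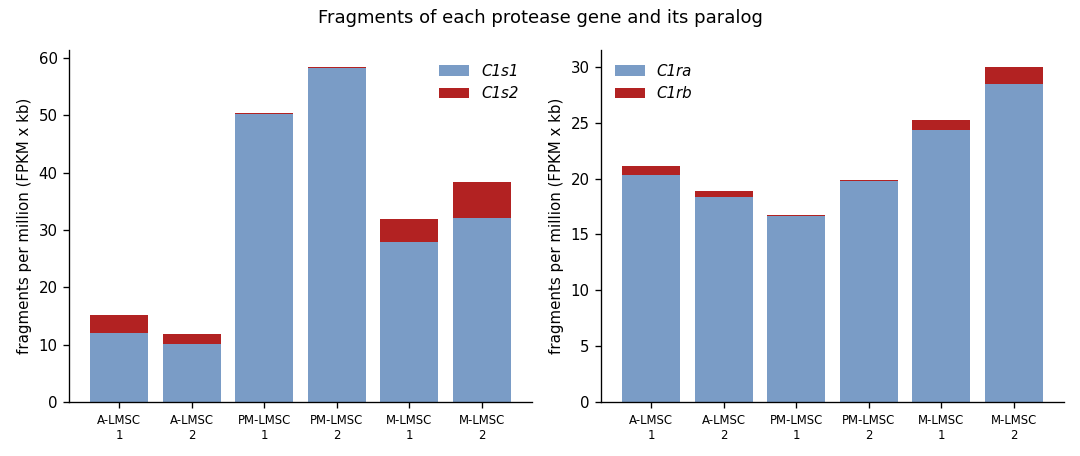
Stacked FPKM times GENCODE exon length in kb (fragments scaled to library size) of C1s1 with C1s2 on the left and of C1ra with C1rb on the right, 1 bar per library. The C1s2 and C1rb parts were at most 0.269% and 0.633% of the bar in the PM-LMSC libraries, where the C1s1 bar was tallest.

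The C1r and C1s genes lie in 1 stretch of chromosome 6, and C1ra and C1rl, on 1 side of C1s1, did not show its difference. C1rb and C1s2, on the other side, were lowest in both PM-LMSC libraries, as given above. On GRCm38 the order is C1rl (chr6:124493113-124510643, plus strand), C1ra (chr6:124512405-124523443, plus), C1s1 (chr6:124530345-124542359, minus), C1rb (chr6:124570294-124581171, plus) and C1s2 (chr6:124624625-124636085, minus). C1rl, which encodes a C1r-like protease, was at 4.72 and 5.30 FPKM at the A stage, 4.41 and 5.27 at the PM stage and 5.84 and 7.19 at the M stage. Pex5, within 100 kb of C1ra, and Lpcat3, Emg1 and Phb2, within 100 kb of C1s2, also had a mean of at least 1 FPKM. All 4 lie more than 100 kb from C1s1, and their PM-LMSC minus A-LMSC differences ran from -0.43 to 0.00 on the log2 scale. An antisense gene, Gm16567, overlaps C1s1 on the plus strand and was at 0.0992 to 0.328 FPKM. Whether the counting used strand is not given in the sources used here.

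Further along the chromosome other genes also set the PM-LMSC libraries apart. They were named after their values were seen. Within 1 Mb of the C1s1 start, 25 of 29 tested genes other than members differed by less than 0.5 (log2) between PM-LMSCs and A-LMSCs, and the exceptions were Eno2, Ptms, Pianp and Gapdh. Gapdh, a glycolytic enzyme often used as a reference gene, was at 1.68 and 2.13 FPKM at the A stage, 41.3 and 50.8 at the PM stage and 1.32 and 1.45 at the M stage. Tpi1, another glycolytic gene in this stretch, was at 180 to 291 FPKM in the same libraries. Whether the Gapdh values reflect how fragments were assigned to genes was not tested, so they are not read as a change in its expression. Pianp was at 5.88 and 5.95, then 0.130 and 0.117, then 4.58 and 6.51 FPKM. Gapdh and Pianp passed the limma test in PM-LMSCs against A-LMSCs (adjusted p = 5.7e-04 and 0.0072), Eno2 passed only with the replicate block (adjusted p = 0.037, against 0.17 without it), and Ptms did not pass in either. Of the 4 genes in the whole table that passed in this comparison, 3 lay on chromosome 6 (C1s1, Pianp and Gapdh), which holds 4.52% of the genes tested, and the fourth was Ifi27l2b on chromosome 12. With the replicate block 9 of 30 did. The reason for this grouping was not tested.

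**Figure D4:**
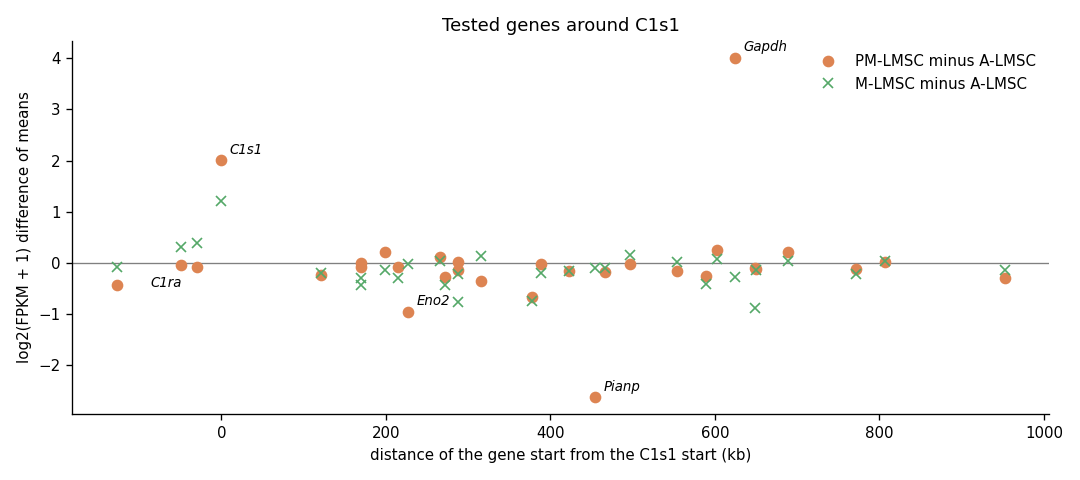
Difference of stage means on the log2(FPKM + 1) scale for the 31 tested genes within 1 Mb of C1s1, against the distance of each gene's start from that of C1s1, with circles for PM-LMSC minus A-LMSC and crosses for M-LMSC minus A-LMSC. Among the PM-LMSC circles Gapdh (4.01), Pianp (-2.62), C1s1 (2.01), Eno2 (-0.95) and Ptms (-0.66) stand away from 0, and the others lie within 0.5 of it.

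The genes most like C1s1 over the 6 libraries were Ifi27l2b (r = 0.99), Mgll (0.98), Wnt2 (0.98), Ptprq (0.96) and Ube2v1 (0.95). Ifi27l2b, a member of an interferon-inducible family, was at 5.35 and 4.76 FPKM at the A stage, 14.7 and 15.9 at the PM stage and 8.96 and 8.77 at the M stage, and it passed the limma test in PM-LMSCs against A-LMSCs (log2 difference 1.43 ± 0.115, adjusted p = 0.020). Mgll, monoglyceride lipase, was at 18.9 and 21.6, then 41.6 and 45.3, then 31.3 and 34.2 FPKM. Mgll and Wnt2 are also on chromosome 6, at a distance from the complement genes. The genes most like C1ra were Fndc1, Adgrd1, Pamr1, Dio3 and Nov (r between 0.97 and 0.99), which were highest in the M-LMSC libraries. Pamr1, itself a gene for a secreted protein with a protease domain, was at 1.72 and 1.37 FPKM at the A stage, 1.21 and 1.70 at the PM stage and 3.09 and 3.67 at the M stage.

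Serping1 was by far the most abundant of the 7 genes and the least variable between stages. It was at 302 and 307 FPKM at the A stage, 248 and 301 at the PM stage and 296 and 374 at the M stage, and the libraries of the 3 stages overlapped. Its mean of 305 FPKM ranked 128th of all 34745 genes, whereas C1s1 ranked 3835th, C1qa 4001st and C1ra 4856th. On the log2(FPKM + 1) scale PM-LMSCs differed from A-LMSCs by -0.16 ± 0.158 (SE) and M-LMSCs by 0.13 ± 0.158, and the latter value was -0.04 without M-LMSC replicate 2. Since FPKM is a level per length, the inhibitor can be set against the proteases. The ratio of Serping1 to the sum of C1s1 and C1ra was 28.2 and 32.6 in A-LMSCs, 11.5 and 11.9 in PM-LMSCs, and 17.3 and 18.9 in M-LMSCs. It was lowest in PM-LMSCs, where C1s1 was highest, and the inhibitor was the more abundant in every library. Among the neighbours of Serping1 (chr2:84765387-84775444, minus strand), Ube2l6 ran from 34.7 to 45.4 FPKM, Zdhhc5 from 31.2 to 38.9 FPKM and Tmx2 from 10.6 to 12.5 FPKM. Another, 2700094K13Rik, varied more, from 9.92 FPKM in M-LMSC replicate 1 to 22.8 FPKM in A-LMSC replicate 2. The genes most like it over the libraries were Aldh1l1, Cpxm1, Plat, Col1a2 and Fam20a (r between 0.96 and 0.98), among which Col1a2 encodes a chain of type I collagen and was at 250 to 507 FPKM.

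Among the 7 genes 6 passed the filter and were in the limma fit. In PM-LMSCs against A-LMSCs 1 of the 6, C1s1, passed an adjusted p of 0.05, beside 0.0389% of all genes tested. It no longer passed when either A-LMSC or either PM-LMSC library was left out, or without the filter on low values, although the log2 difference was then 1.91 to 2.11, beside 2.01 with every library. In M-LMSCs against A-LMSCs 0 of 6 passed (0.0681% of all genes), and with the replicate block 3 passed, C1s1, C1qb and C1qc (3.92% of all genes). When a correction for GC content and length was added to the block, C1qb and C1qc no longer passed (limma adjusted p = 0.087 and 0.064) and C1s1 did (0.035). In M-LMSCs against PM-LMSCs 0 of 6 passed, beside 0.0292% of all genes, or 0.418% with the block, and in PM-LMSCs against A-LMSCs the block gave C1s1 again, beside 0.292% of all genes. At an unadjusted limma p under 0.05, 5 of the 6 and 1504 of all genes stood out in M-LMSCs against A-LMSCs, and 5 of the 6 and 919 of all genes in M-LMSCs against PM-LMSCs. As the genes were chosen with these contrasts known, the counts describe them and test nothing. Of the 6, C1s1 was higher in both PM-LMSC libraries than in the other 4, as were 4.26% of all genes tested, and the 3 C1q chains and C1ra were higher in both M-LMSC libraries than in the other 4, as were 11.8%.

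The rest of the complement system was read from 44 genes in 6 lists, of which 15 reached a mean of 1 FPKM. None of the 15 passed limma's test in any comparison. At an unadjusted p under 0.05, 6 genes were higher at the PM stage and 9 at the M stage when set against A-LMSCs, 5 were higher in M-LMSCs when set against PM-LMSCs, and 0 were lower in each. Over all 10279 genes 671, 1504 and 919 had such a p in these comparisons, in either direction. With the replicate block 6 passed in M-LMSCs against A-LMSCs, all of them higher, beside 3.92% of all genes, and 1 in M-LMSCs against PM-LMSCs, beside 0.418%. The median log2 difference of the 15 from A-LMSCs was 0.15 at the PM stage, beside 0.01 over all genes tested, and 0.65 at the M stage, beside 0.03. Both M-LMSC libraries were above the other 4 for 7 of the 15, beside 11.8% of all genes tested, and for 12 of all 44. In both PM-LMSC libraries 0 of the 15 were highest and 0 lowest, beside 4.26% and 6.05% of all genes tested. These counts of tested genes leave out low ones such as C1rb and Cfb, which, like C1s2, were lowest in both PM-LMSC libraries. As the filter's mean includes the M-LMSC libraries, a gene could pass through its values there. C3ar1, with stage means of 0.532, 0.713 and 2.22 FPKM at the A, PM and M stages, did so. The counts and medians of the 15 thus describe them and test nothing.

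By role, the substrates of C1s were present at moderate levels. C2 was at 3.88 and 3.61 FPKM at the A stage, 3.90 and 6.09 at the PM stage and 4.71 and 9.26 at the M stage. C4b was at 1.93 and 1.90, then 1.52 and 2.73, then 2.00 and 5.94 FPKM, and C4a did not exceed 0.107 FPKM. Of the lectin pathway, Masp1, a protease related to C1r and C1s, was at 18.9 and 16.5, then 11.9 and 15.2, then 16.9 and 9.57 FPKM, and the recognition genes Mbl1 and Fcnb were listed at 0. C3, the central component, was at 2.19 and 2.30 FPKM at the A stage, 5.11 and 8.06 at the PM stage and 11.6 and 22.2 at the M stage, with no overlap of the stages (M-LMSC minus A-LMSC 2.40 ± 0.307, limma adjusted p = 0.072, or 0.0094 with the block). Cfp was at 1.32 and 1.77, then 1.73 and 0.772, then 4.90 and 4.05 FPKM, the order of the C1q chains (adjusted p = 0.12, or 0.034 with the block). Cfd, the protease that starts the alternative pathway, was listed at 0 in every library.

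Among the regulators, Cd59a, the membrane inhibitor of the terminal complex, was at 13.1 and 14.8 FPKM at the A stage, 22.6 and 20.3 at the PM stage and 19.7 and 21.1 at the M stage. Clu, the fluid-phase inhibitor clusterin, was at 7.83 and 9.40, then 15.7 and 19.9, then 16.1 and 38.5 FPKM. For both genes every PM-LMSC and M-LMSC library lay above both A-LMSC libraries. Of the terminal pathway 0 of 7 genes reached 1 FPKM, with C7, C8a and C9 listed at 0 and C8g the highest at no more than 0.249 FPKM. Among the receptors, C3ar1, which binds C3a, was at 0.546 and 0.518, then 0.959 and 0.468, then 2.30 and 2.14 FPKM (adjusted p = 0.085, or 0.017 with the block), and Itgb2, the beta chain of the leukocyte receptors for cleaved C3, was at 2.39 and 2.16, then 2.99 and 1.63, then 4.14 and 3.28 FPKM. C3ar1 and Itgb2 are themselves expressed by myeloid cells. Colec11, a lectin pathway recognition gene, was at 0.243 and 0.331, then 0.783 and 1.41, then 1.05 and 2.22 FPKM and also passed in M-LMSCs against A-LMSCs with the block (adjusted p = 0.15, or 0.023 with it).

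**Figure D5:**
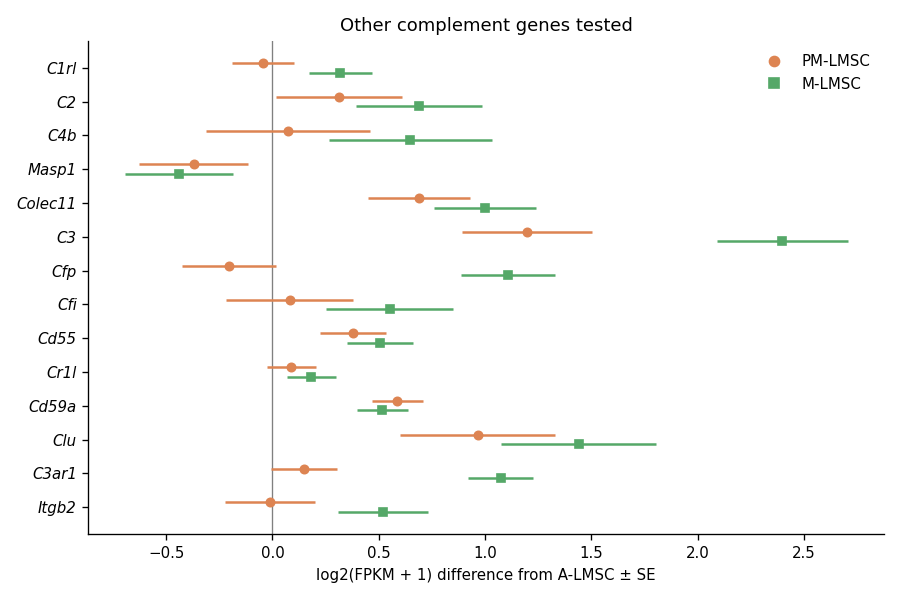
Difference from A-LMSCs on the log2(FPKM + 1) scale for 14 of the 15 other complement genes tested, with circles for PM-LMSCs, squares for M-LMSCs and bars of 1 SE of the limma fit. Most M-LMSC squares lie to the right of 0, led by C3 at 2.40, while Masp1 lies at -0.44.

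Proteins that bind C1q or carry its globular domain were mostly at other levels. Of 7 genes for proteins that bind C1q, 3 were tested and 0 passed or had an unadjusted p under 0.05 in any comparison. Calr, the chaperone calreticulin, ran from 465 to 635 FPKM, Lrp1 from 123 to 159 FPKM and C1qbp from 39.6 to 50.1 FPKM. Of 26 genes with a C1q domain 25 were in the table and 9 were tested, of which 0 passed the limma test. In M-LMSCs against A-LMSCs 2 of the 9 had an unadjusted p under 0.05, both higher, beside 1504 of all 10279 genes in either direction. C1qtnf3 was lower in M-LMSCs against PM-LMSCs with the replicate block alone (limma adjusted p = 0.047, against 0.41 without it). Col8a1, a collagen with a C1q domain, was at 73.5 and 57.2 FPKM at the A stage, 67.5 and 61.8 at the PM stage and 97.6 and 81.5 at the M stage. It was 1 of the 9, and the only 1, that was higher in both M-LMSC libraries than in the other 4, which is near the share of 11.8% of all genes tested.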

How the data were processed

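Lung MSC cultures of 3 tumor stages were profiled by RNA-seq, with 2 libraries per stage. The authors deposited FPKM values for 34745 genes. The labels name TopHat2 2.0.9 and mm10, and the gene counter, annotation and strand setting are not given in the sources used here. The third library of each stage that the study describes was not analysed here. Coordinates and exon lengths are from GENCODE M21 (GRCm38), which held 34267 of the identifiers, and where a name had 2 identifiers the one in that annotation was used. The 10279 genes that averaged 1 FPKM or more were fitted as log2(FPKM + 1) in R 4.3.3 with limma 3.58.1 (lmFit, eBayes with trend, all 6 libraries, 1 mean per stage), a scale that understates changes of low genes. Adjusted p-values (Benjamini-Hochberg, over every gene in the fit, threshold 0.05) measure the spread between these samples, which may be technical. Same-numbered libraries deviated together (correlations of 0.24, 0.31 and 0.49 between stages), so values from a fit with a replicate block are printed where they change a call or a count. Fragments were computed as FPKM times exon length times the depth estimated from low values, and are whole within 0.05 for C1qa, C1qb, C1ra, C1rb and C1s2 but not for C1s1, C1qc and Serping1, whose lengths behind the FPKM may differ from those used. Coding sequences were aligned with Biopython 1.88. Genes were named by rule: the 7 genes, for each other complement list those that passed and the 2 most abundant, neighbours within 100 kb, the 5 genes most correlated with C1s1, C1ra, Serping1 and the C1q sum, and marker genes that were at 0 or among the 3 most abundant. Results of some genes are not reported here. Other names are given with a count they explain or were chosen after their values were seen. Members, lists and tests were chosen with earlier results of these data known. Alternatives were another pseudocount, no filter, quantile normalization, median centring, the 2 stages alone, the block with and without a GC and length correction, a fold limit, summed C1s copies and each library left out.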

Additional observations from a re-analysis of the deposited data

How the results depend on the processing

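With the replicate block the genes called rose to 30 in PM-LMSCs against A-LMSCs, 403 in M-LMSCs against A-LMSCs and 43 in M-LMSCs against PM-LMSCs, from 4, 7 and 3. The members called in M-LMSCs against A-LMSCs rose from 0 to 3, and the other complement genes called from 0 to 6 there and from 0 to 1 in M-LMSCs against PM-LMSCs. The block with a GC and length correction gave 289 genes, 1 member and 4 other complement genes in M-LMSCs against A-LMSCs, with the calls of C1qb and C1qc lost and that of C1s1 kept. It gave 6 genes in PM-LMSCs against A-LMSCs, C1s1 among them, and 6 genes and 0 other complement genes in M-LMSCs against PM-LMSCs. Without the filter 1 gene was called in PM-LMSCs against A-LMSCs and 3 in M-LMSCs against A-LMSCs, with 0 members in the former. With only the libraries of the 2 stages compared, 21 and 1 genes were called in these 2 comparisons. Leaving out 1 library gave 1 to 28 genes, 0 to 1 members and 0 other complement genes in PM-LMSCs against A-LMSCs, 1 to 90 genes, 0 to 1 members and 0 to 3 other complement genes in M-LMSCs against A-LMSCs, and 2 to 25 genes in M-LMSCs against PM-LMSCs. The lone library left in a stage is then assumed to vary like the others. The cause of these shifts was not tested. Of 237 values of the members' log2 differences under the alternatives, 221 moved by less than the spread between replicates and 16 by more, and 5 had the opposite sign, each without 1 library. The summed C1s copies gave a PM-LMSC over A-LMSC fold of 4.01 in place of 4.87. With 2 libraries a stage and depths of about 14800000 to 20800000 fragments, genes under about 1 FPKM could not be compared closely.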

Other observations

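C1s and the C1 inhibitor are known to be inducible by interferon. Interferon-stimulated genes were read from a list of 20, of which 12 were tested. None passed the limma test in any comparison. In M-LMSCs against A-LMSCs 5 had an unadjusted p under 0.05, all higher, beside 1504 of all 10279 genes in either direction. The median log2 difference of the 12 from A-LMSCs was 0.23 at the PM stage and 0.44 at the M stage, beside 0.01 and 0.03 over all genes. Ifi27l2b, the gene most like C1s1, was not on the list and passed in PM-LMSCs against A-LMSCs (limma adjusted p = 0.020). With the replicate block 2 of the 12 passed in M-LMSCs against A-LMSCs, beside 3.92% of all genes tested. They were Ifit1 (limma adjusted p = 0.025) and Isg15 (0.037). Isg15, a ubiquitin-like modifier, was at 8.57 and 9.52 FPKM at the A stage, 10.5 and 13.2 at the PM stage and 13.0 and 23.0 at the M stage. Gbp2 was at 46.1 and 49.4, then 36.0 and 35.5, then 48.0 and 71.1 FPKM. Of the 12, 2 were lowest in both PM-LMSC libraries, Gbp2 and Irf1, beside 6.05% of all genes tested. The counts and medians of the 12 describe them only, since the filter's mean includes the M-LMSC libraries. The part of interferon in the C1s1 values was not tested.

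Mesothelial markers varied between the libraries more than the stromal ones. Of 14, 13 were tested. In PM-LMSCs against A-LMSCs 0 passed. At an unadjusted limma p under 0.05, 9 were higher and 1 lower, beside 671 of all 10279 genes in either direction. With the replicate block 4 were higher, beside 0.292% of all genes. In M-LMSCs against A-LMSCs 1 passed, lower, beside 0.0681% of all genes. With the block 8 were higher and 1 lower there, beside 3.92%. Msln, mesothelin, was at 8.87 and 12.7 FPKM at the A stage, 33.8 and 47.7 at the PM stage and 12.6 and 48.2 at the M stage. The 2 M-LMSC libraries were thus far apart in Msln while nearly equal in each C1q chain.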
